A study of Mus musculus with 18 samples.

Results

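The liver makes most of the proteins of blood plasma, and 35 genes for such proteins, chosen by gene symbol, were followed among the 46078 gene identifiers of each of 4 expression tables. The members are 8 carriers, 7 apolipoproteins, 8 clotting and clot-dissolving factors, 8 protease inhibitors or matrix stabilizers, and 4 complement and adhesion proteins. RNA came from female mice with a homozygous Xist deletion (mutants) and from female mice with a heterozygous Xist deletion (controls), so the controls also carry the deletion, on a single X chromosome. Liver, spleen and brain were taken on postnatal day 1, with 2 mutant and 2 control libraries each, and primary tail-tip fibroblasts gave 3 mutant and 3 control libraries. Xist is the long noncoding RNA that silences an X chromosome in female cells, and the study asked how female mice fare without it. The sources used here do not say which part of Xist was deleted, what drove any Cre, which strain the mice had or which were littermates. Replicates are biological per the series text, and p-values measure the spread between these few libraries. The question for the liver genes was whether their RNA differed between mutant and control livers, and how much of it appeared in the spleen libraries.

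Hepatocytes secrete albumin, the main carrier of plasma, and before and around birth also alpha-fetoprotein, its fetal relative. Apolipoproteins are the protein part of lipoproteins: Apob forms the body of very-low-density particles, Apoa1 and Apoa2 that of high-density particles, Apoe is a ligand for lipoprotein receptors, and Apoc1 and Apoc3 slow the clearance of triglyceride-rich particles. Fibrinogen, assembled from the products of Fga, Fgb and Fgg, is cut to fibrin by thrombin, the product of F2. Transcription of these genes in hepatocytes depends on liver-enriched factors that include HNF1, HNF4A, FOXA and C/EBP proteins. Several members also have sources outside the liver: macrophages make Apoe, C3 and F10, and astrocytes make Apoe.

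Promoter windows of 5 members are printed, 250 bases before to 50 after the transcription start, because these genes carry the results below and differ in which liver-factor motifs they hold. Capitals mark GTTAAT, one arm of the HNF1 site, and TTNNGCAA, a C/EBP-type motif, both searched on both strands, and in these windows the matches do not overlap. Sequences are from RefSeq, build GRCm38.p6, and read in the direction of transcription. They lie at chr5:90460620-90460919 (plus strand) for Alb, chr5:90490464-90490763 (plus) for Afp, chr3:83049814-83050113 (minus) for Fgb, chr17:57228087-57228386 (minus) for C3 and chrX:59999214-59999513 (plus) for F9.
Alb: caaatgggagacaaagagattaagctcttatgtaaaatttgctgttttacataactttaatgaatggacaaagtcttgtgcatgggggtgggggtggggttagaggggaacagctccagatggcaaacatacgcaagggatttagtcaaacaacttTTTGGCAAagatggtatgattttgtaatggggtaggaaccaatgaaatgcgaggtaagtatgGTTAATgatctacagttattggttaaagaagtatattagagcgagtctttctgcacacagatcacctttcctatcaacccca
Afp: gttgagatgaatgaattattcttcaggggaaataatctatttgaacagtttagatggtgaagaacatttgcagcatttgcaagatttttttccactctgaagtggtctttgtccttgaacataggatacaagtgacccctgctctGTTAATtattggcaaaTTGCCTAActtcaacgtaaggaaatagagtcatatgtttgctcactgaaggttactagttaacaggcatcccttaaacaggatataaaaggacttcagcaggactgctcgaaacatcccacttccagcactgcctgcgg
Fgb: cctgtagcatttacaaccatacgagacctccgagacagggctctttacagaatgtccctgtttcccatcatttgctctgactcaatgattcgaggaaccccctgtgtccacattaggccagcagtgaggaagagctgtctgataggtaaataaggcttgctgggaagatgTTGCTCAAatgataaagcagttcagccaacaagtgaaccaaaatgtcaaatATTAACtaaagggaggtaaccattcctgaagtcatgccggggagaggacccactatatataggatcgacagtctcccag
C3: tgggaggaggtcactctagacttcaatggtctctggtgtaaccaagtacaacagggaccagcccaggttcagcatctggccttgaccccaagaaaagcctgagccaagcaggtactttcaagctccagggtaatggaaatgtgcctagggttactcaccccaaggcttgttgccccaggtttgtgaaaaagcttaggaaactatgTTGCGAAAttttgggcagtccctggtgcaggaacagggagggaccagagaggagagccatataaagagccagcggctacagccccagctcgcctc
F9: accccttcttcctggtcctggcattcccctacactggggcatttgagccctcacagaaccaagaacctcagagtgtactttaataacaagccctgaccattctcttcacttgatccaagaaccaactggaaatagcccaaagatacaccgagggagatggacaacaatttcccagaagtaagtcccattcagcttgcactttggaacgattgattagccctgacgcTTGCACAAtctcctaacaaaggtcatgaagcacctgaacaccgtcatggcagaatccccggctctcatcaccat
Alb, Afp and Fgb hold both motifs, and C3 and F9 hold only the C/EBP-type motif. Over the 33 promoter windows found for 28 of the 35 members, 10 (30.3%) held GTTAAT, compared with 7.10% of all 32851 windows in the table. The C/EBP-type motif stood in 14 of the 33 (42.4%), compared with 10.8% of all windows. A match is a run of letters and was not tested as a binding site.

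Levels below are the scaled counts of the authors, called signal, and are not divided by gene length. Libraries held 12.4 M to 29.2 M reads in genes, and 1 read was worth a signal of 0.0343 to 0.0751. A gene without a read could have held up to 3 reads, a signal of 0.103 to 0.225, counting error only. Xist was lower in the mutants of every tissue, and least so in liver, where it read 178 and 257 in mutants, against 594 and 730 in control livers; the spleen values were 117 and 51.2 in mutants and 1205 and 1121 in controls. Because the tables were normalized separately, levels are set across tissues only as shares of each library's reads or as ratios within a library.

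All 35 genes had a higher level, as a share of reads, in each of the 4 liver libraries than in each of the 14 other libraries. The narrowest gap was for Cfb, whose lowest liver value was 4.65 times the highest value elsewhere, and the widest was for Fetub, at 479 times. In liver they took 21.1% and 19.0% of the summed signal in mutants, against 21.4% and 20.7% in controls. Mutant 1 lay between the control livers, and the groups overlapped (difference -1.07 percentage points, exact permutation test, two-sided p = 0.667, where the smallest p the design allows is 0.333). The difference was -2.12 percentage points without mutant 1, -0.029 without mutant 2 and between these without either control. Alb alone took 7.92% and 4.90% in mutants and 8.39% and 5.01% in controls. The share of albumin thus differed more between libraries of the same genotype than between genotypes.

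**Figure D1:**
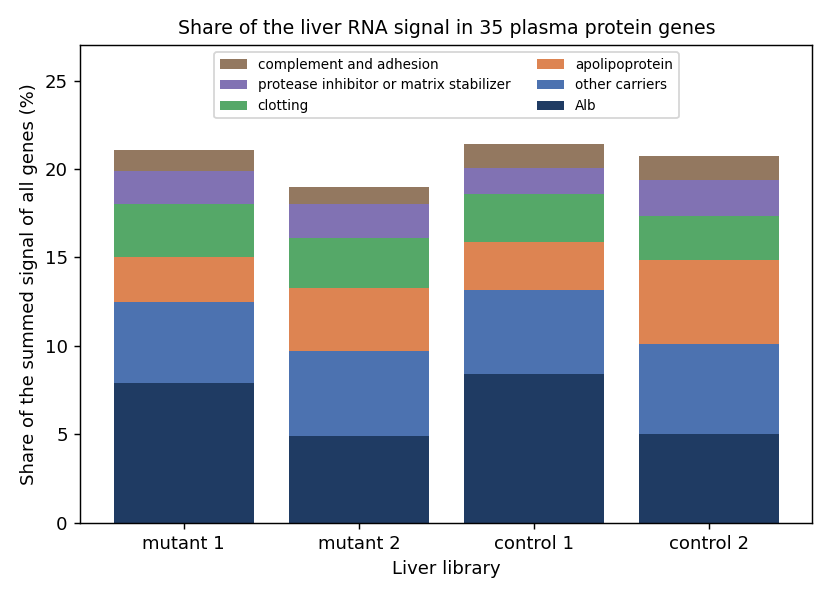
Stacked bars give the share of the summed signal of all genes (percent, y axis) taken by the 35 plasma protein genes in each liver library (x axis), split into Alb and the role groups. The 4 bars reach 21.1% and 19.0% in mutants and 21.4% and 20.7% in controls, and the Alb block is taller in mutant 1 and control 1 than in mutant 2 and control 2.

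Per kilobase of exon, the order of levels in control livers was led by Alb, with a signal of 28501 per kb, followed by Ahsg at 13879, Apoa1 at 9890, Apoe at 4826, Apoa2 at 3568 and Afp at 3383 per kb. The lowest were Apoc3 at 74.1, F9 at 15.3 and Cfb at 1.61 per kb. Mutant livers kept the same 4 genes at the top, with Alb at 27576, Ahsg at 13784, Apoa1 at 9314 and Apoe at 4129 per kb, while Apoa2 stood in place 8 at 2211 per kb and in place 5 in controls. In the annotation used here, 79.5% of the exon bases of Cfb and 63.5% of those of Trf are shared with another gene on the same strand, and 34.4% of those of Serpinc1 with an opposite-strand gene. The sources used here do not state how such reads were counted, so the levels of these genes are uncertain, as is that of Serpina1a, which has near-identical paralogs.

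No plasma protein gene passed the test in liver. The limma fit called 0 of 15075 genes (0.0%), with 1006 genes (6.67%) at an unadjusted p below 0.05, and 1 of the 35 members, Apoc3, was among the latter. DESeq2 on the recovered reads called 211 genes (1.4%), edgeR called 0 (0.0%), and neither called a member. The log2 differences of the members, mutant minus control, were above 0 for 13 (55.9% of all genes were) and below 0 for 22 (44.1% of all genes were), with a median of -0.05 and a median of 0.05 over all genes. Mutant and control libraries did not overlap for 9 members: 2 were higher in both mutants (23.5% of all genes were) and 7 lower in both (13.1% of all genes were). These are bulk samples, so fewer hepatocytes and less RNA per hepatocyte cannot be told apart.

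**Figure D2:**
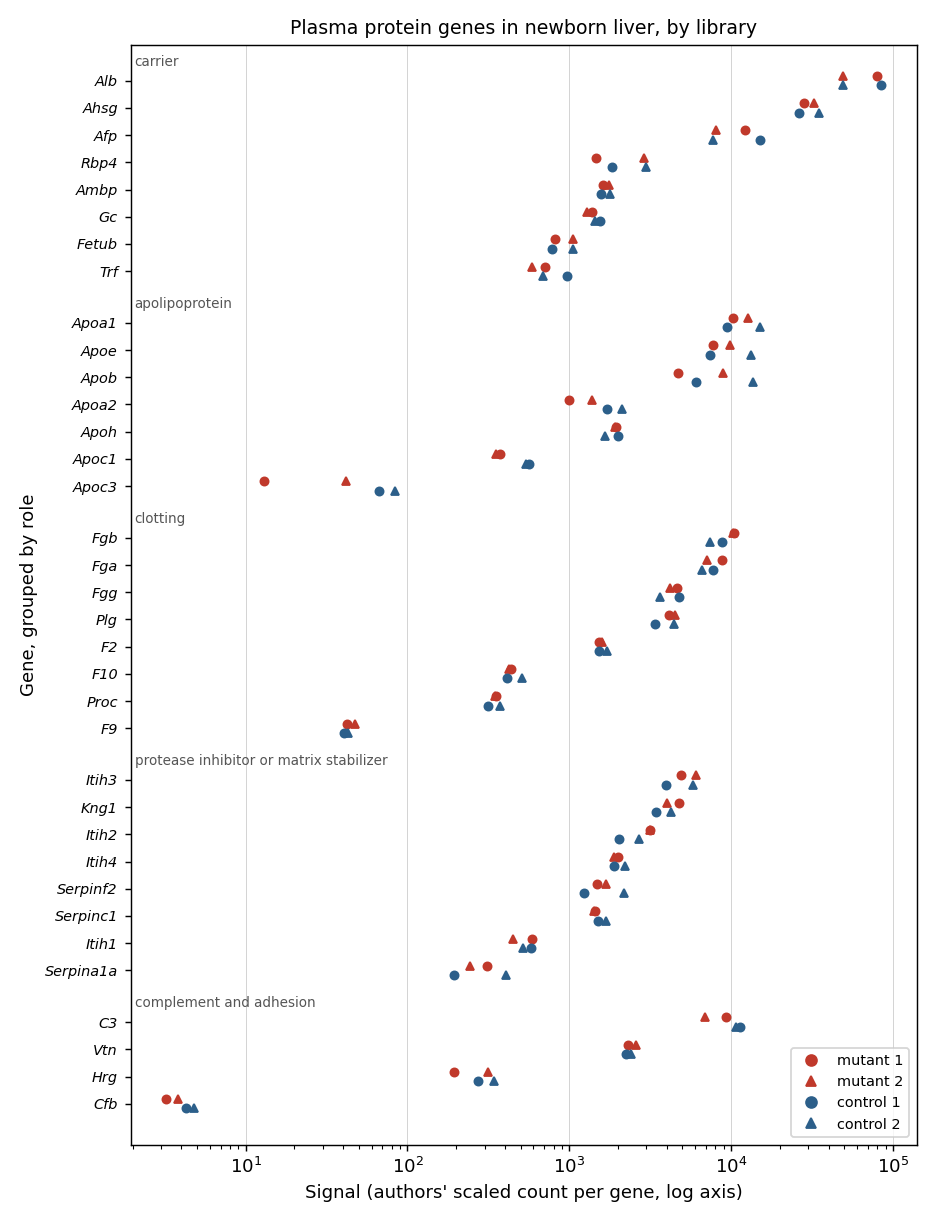
Points give the signal of each plasma protein gene in each liver library (x axis, log scale; red, mutants, drawn above blue, controls; circles, libraries numbered 1; triangles, libraries numbered 2), with genes grouped by role. Red and blue points interleave for most genes, and Apoc3, Apoa2 and Apoc1 have both red points to the left of both blue points.

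Carriers. Alb read 80095 and 49071 in mutant livers, against 84131 and 49369 in control livers. The libraries numbered 1 were the high ones in both genotypes, and the groups overlapped (log2 difference -0.04, SE 0.84). Afp read 12160 and 8010 in mutants, against 15010 and 7780 in controls, again with the libraries numbered 1 on top (log2 difference -0.13, SE 0.59). Ahsg, which encodes fetuin-A, an inhibitor of mineral precipitation in plasma, read 28032 and 32536 in mutants and 26295 and 34689 in controls. Here the libraries numbered 2 were high, and the log2 difference was -6.4e-05 (SE 0.65, 95% interval -1.67 to 1.67). Gc, which carries vitamin D, was the carrier whose groups did not overlap, at 1386 and 1282 in mutants, against 1549 and 1434 in controls (log2 difference -0.16, SE 0.30, limma adjusted p = 0.963). Trf, the iron carrier transferrin, read 706.5 and 590.7 in mutants and 962.8 and 686.3 in controls. The remaining carriers were Ambp, Rbp4, which carries retinol, and Fetub, with log2 differences of 0.01, -0.18 and 0.04. In all, 6 of 8 carriers were below 0, with a median of -0.09.

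Apolipoproteins. These held the lowest log2 differences among the members: 6 of 7 were below 0 and their median was -0.50. Apoc3, an inhibitor of lipoprotein lipase (ENSMUSG00000032081, chr9:46232933-46235636, GRCm38, minus strand), read 12.9 and 41.5 in mutant livers, against 66.6 and 83.8 in control livers. Both mutants were low, mutant 1 most, and the means were 27.2 ± 20.2 in mutants and 75.2 ± 12.2 in controls (SD, n = 2 each). Its log2 difference was -1.66 (SE 0.56, 95% interval -3.11 to -0.21, unadjusted p = 0.032, limma adjusted p = 0.718), and adjusted p-values over its alternatives ran from 0.112 to 1.000, with DESeq2 at 0.218. Apoa2 read 1001 and 1373 in mutants, against 1709 and 2123 in controls. Apoc1 read 373.2 and 353.0 in mutants, against 566.3 and 543.1 in controls, the tightest replicates of the group. Neither overlapped between groups, with log2 differences of -0.70 (SE 0.35, adjusted p = 0.800) for Apoa2 and -0.61 (SE 0.24, adjusted p = 0.749) for Apoc1 by limma. Leaving out any single liver library kept Apoa2 between -0.93 and -0.47, Apoc1 between -0.65 and -0.57 and Apoc3 between -2.48 and -0.84.

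The larger lipoprotein proteins varied more between libraries of a genotype. Apob read 4668 and 8945 in mutants, against 6038 and 13737 in controls (log2 difference -0.50, SE 0.65). Apoe read 7783 and 9872 in mutants and 7356 and 13281 in controls, and Apoa1 read 10224 and 12801 in mutants and 9445 and 15003 in controls. For all of these the libraries numbered 2 were higher than those numbered 1 and the groups overlapped. Apoh, beta-2-glycoprotein I, a phospholipid-binding protein that is not part of the lipoprotein core, read 1947 and 1903 in mutants and 2003 and 1666 in controls, and was the apolipoprotein with a log2 difference above 0, at 0.08 (SE 0.33). A list of 14 further genes of lipoproteins and their assembly also had more differences below 0 than above, 11 and 3, with a median of -0.47. Of these, Apon, an apolipoprotein gene, read 4.66 and 13.7 in mutants, against 28.6 and 34.7 in controls, and was called by DESeq2 (adjusted p = 0.045) but not by limma (log2 difference -1.90, SE 0.51, adjusted p = 0.641). Apof read 330.5 and 374.7 in mutants and 515.6 and 599.1 in controls, and Apoa5, an activator of triglyceride clearance, read 1082 and 2799 in mutants and 646.4 and 1186 in controls.

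Clotting factors. Fibrinogen genes lay slightly above 0. Fgb read 10435 and 10344 in mutants, against 8799 and 7430 in controls, with both mutants on top (log2 difference 0.36, SE 0.47, limma adjusted p = 0.934). Fga read 8792 and 7129 in mutants and 7779 and 6644 in controls, and Fgg read 4663 and 4217 in mutants and 4764 and 3651 in controls, and both of these chains overlapped between genotypes. F9, coagulation factor IX, is the X-linked member. It read 42.5 and 47.3 in mutants, against 40.4 and 43.0 in controls, where mutant 1 lay between the controls (log2 difference 0.10, SE 0.20, 95% interval -0.42 to 0.62). Plg, the precursor of the clot-dissolving protease plasmin, had a log2 difference of 0.15, F2 of -0.05, F10, the protease that activates prothrombin, of -0.10, and Proc, the anticoagulant protein C, of 0.03. Altogether 6 of 8 were above 0, with a median of 0.10. Among 14 other coagulation and fibrinolysis genes 3 were above 0 and 11 below (median -0.19), and none was called. The ones with the smallest p were Pros1, the cofactor of protein C, at 21.2 and 30.2 in mutants and 14.9 and 15.6 in controls, and F11, at 93.8 and 109 in mutants and 133 and 132 in controls.

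Protease inhibitors and matrix stabilizers. The inter-alpha-trypsin inhibitor heavy chains, which stabilize hyaluronan in the matrix, split in direction. Itih2 read 3141 and 3162 in mutants, against 2036 and 2703 in controls, with both mutants above both controls (log2 difference 0.43, SE 0.36, limma adjusted p = 0.889). Itih3 had a log2 difference of 0.19, Itih1 of -0.09 and Itih4 of -0.08, all with overlapping groups. Serpinc1, antithrombin, read 1435 and 1428 in mutants, against 1502 and 1682 in controls, a separation of the groups with a log2 difference of -0.15 (SE 0.30). Serpina1a, an alpha-1-antitrypsin gene, read 311.4 and 242.1 in mutants and 192.8 and 404.7 in controls, and both mutants lay between the controls. Kng1, the kininogen precursor of bradykinin, and Serpinf2, antiplasmin, had log2 differences of 0.20 and -0.05. The median of the 8 was -0.04.

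Complement and adhesion proteins. C3, the central complement component, read 9304 and 6881 in mutants, against 11389 and 10715 in controls, so that both mutants were lower (log2 difference -0.47, SE 0.48, limma adjusted p = 0.913). Cfb, the protease of the alternative pathway, had few reads in liver, with 3.24 and 3.84 in mutants, against 4.26 and 4.82 in controls (log2 difference -0.32, SE 0.25). Hrg, a heparin- and zinc-binding glycoprotein, read 192.6 and 313.7 in mutants and 273.0 and 343.8 in controls, with overlap. Vtn, vitronectin, read 2309 and 2568 in mutants and 2243 and 2417 in controls, with overlap as well. In a list of 15 other complement genes 4 were above 0 and 11 below (median -0.31). Mbl1, mannose-binding lectin, read 15.2 and 12.0 in mutants, against 29.2 and 29.3 in controls, and was called by DESeq2 (adjusted p = 0.035) but not by limma (log2 difference -1.09, SE 0.22, adjusted p = 0.522).

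**Figure D3:**
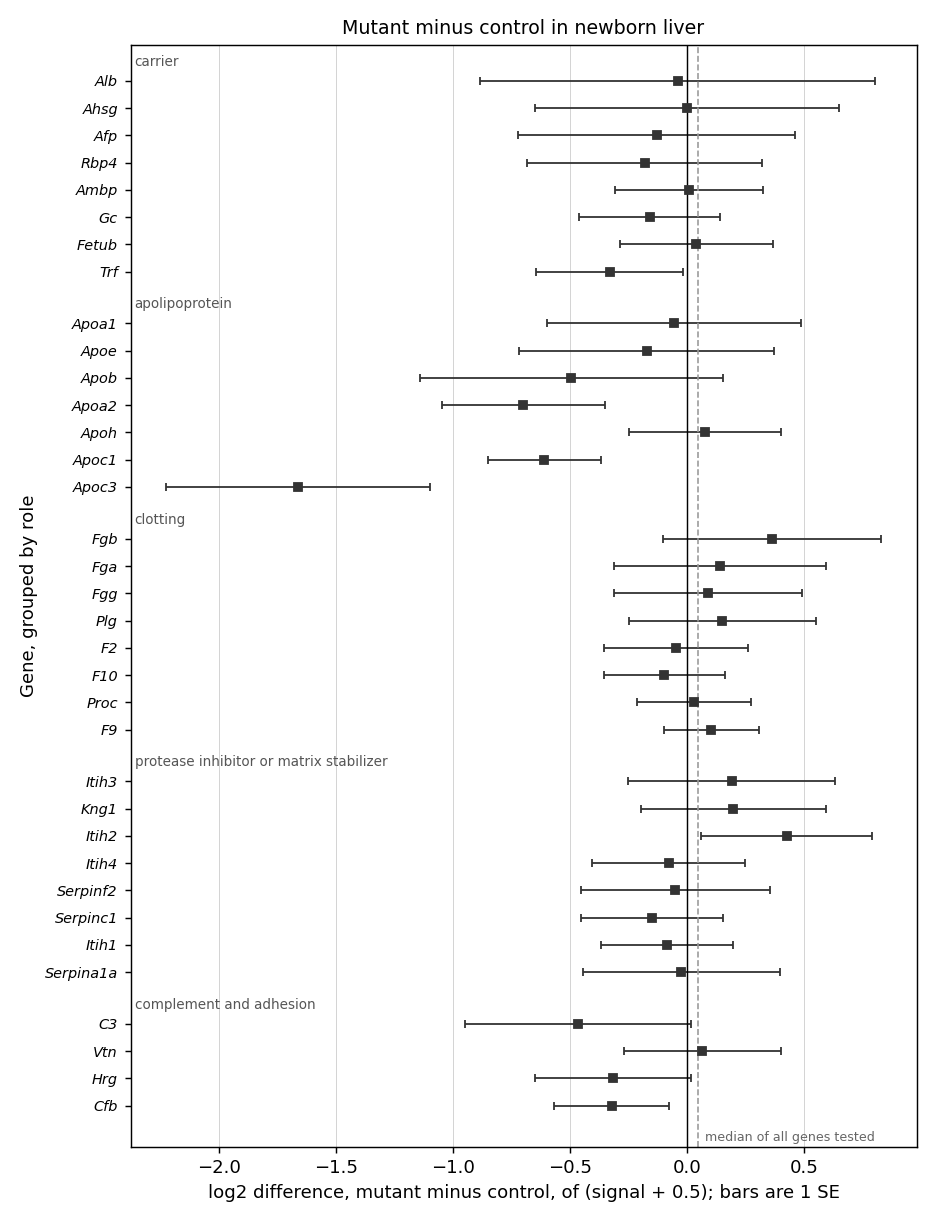
Squares give the log2 difference of each plasma protein gene between mutant and control livers (x axis, mutant minus control, on log2 of signal plus 0.5) and bars 1 SE; the dashed line is the median of all genes tested, 0.05. Apoc3 lies farthest from 0 at -1.66, and 6 of the 7 apolipoproteins lie left of 0.

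Other hepatocyte genes were read beside these. Of 17 tested further carriers and inhibitors 5 were above 0 and 12 below (median -0.20); Ttr, transthyretin, which carries thyroid hormone, read 1172 and 779 in mutants, against 2451 and 1573 in controls (log2 difference -1.04, SE 0.40, limma adjusted p = 0.746). Of 25 genes of the secretory pathway 8 were above 0 and 17 below (median -0.20), and none was called by limma or DESeq2. Hepatocyte transcription factors were split, 9 above 0 and 11 below (median -0.13). Onecut2, a factor of early liver development, read 30.2 and 54.9 in mutants, against 110 and 156 in controls (log2 difference -1.68, SE 0.37, limma adjusted p = 0.580), and DESeq2 called it (adjusted p = 0.0039). Cebpb, a C/EBP factor, read 157 and 125 in mutants, against 53.9 and 87.1 in controls (limma adjusted p = 0.675).

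Of 12 hepatocyte genes whose products stay in or on the cell, 8 were above 0 and 4 below, with a median of 0.27. Tat, a tyrosine-degrading enzyme that the liver switches on around birth, read 5327 and 3290 in mutant livers, against 334 and 536 in control livers. Both mutants were far above both controls (log2 difference 3.31, SE 0.42, limma adjusted p = 0.333, DESeq2 adjusted p = 4.7e-12). Among the plasma protein genes the member farthest above 0, Itih2, was at 0.43.

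Other liver markers were read by library number and by genotype. Of the 35 members, 7 were higher in both livers numbered 1 than in both numbered 2 (17.9% of all genes were) and 14 were lower (31.9% of all genes were). All 9 erythroid markers were higher in the livers numbered 1, with a summed signal of 29263 and 12750 in mutants and 23155 and 7688 in controls for numbers 1 and 2. Endothelial markers, 6 of 6, and fibroblast markers, 6 of 6 tested, were higher in both mutants (23.5% of all genes were) and none was called by limma or DESeq2, with sums of 987 and 1004 for endothelial markers in mutants and 728 and 814 in controls. Fibroblast marker sums were 696 and 581 in mutants and 418 and 498 in controls. Col1a1, Col3a1 and Dcn are also in the list of hepatic stellate and mesenchymal markers. In that list Lrat read 6.33 and 7.10 in mutants, against 12.7 and 12.6 in controls. Des, Reln and Pdgfrb of the same list overlapped between genotypes. The part of these cell types in the liver differences was not tested.

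The same genes in spleen. Here each library was read against the mean of the control livers, both as shares of a library's reads. Alb read a signal of 264 and 9.49 in mutant spleens, against 192 and 3.40 in control spleens. The high spleens were mutant 1 and control 1, so the genotypes overlapped fully. In percent of the control livers, Alb stood at 0.425% in mutant 1 and 0.0140% in mutant 2, against 0.256% in control 1 and 0.00534% in control 2. Ahsg followed the same order, with a signal of 78.7 and 6.16 in mutants and 58.2 and 2.56 in controls, and so did Fgb, with 26.0 and 2.14 in mutants and 19.99 and 0.954 in controls. Afp read 37.0 and 2.68 in mutants and 59.5 and 0.656 in controls, so that control 1 was the highest.

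Of the 35 members, 24 were higher in both spleens numbered 1 than in both numbered 2 (12.4% of the 16578 genes tested were), 4 were lower and 7 overlapped. The filter on low values kept 28 members in spleen, some of them only through their level in the spleens numbered 1, so the count is given over all 35. The share of 12.4% covers only genes that passed the filter, so it is not over a like set. The median level of the 35, in percent of the control livers, was 0.349% in mutant 1 and 0.0511% in mutant 2, against 0.201% in control 1 and 0.0181% in control 2. Across the 35 members, spleen levels ranked like those of control livers in mutant 1 and control 1 (Spearman's rho 0.90 and 0.89) and less so in mutant 2 and control 2 (0.54 and 0.59). These rank correlations are across genes that share a library, its depth and the genes' lengths, and describe the libraries.

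**Figure D4:**
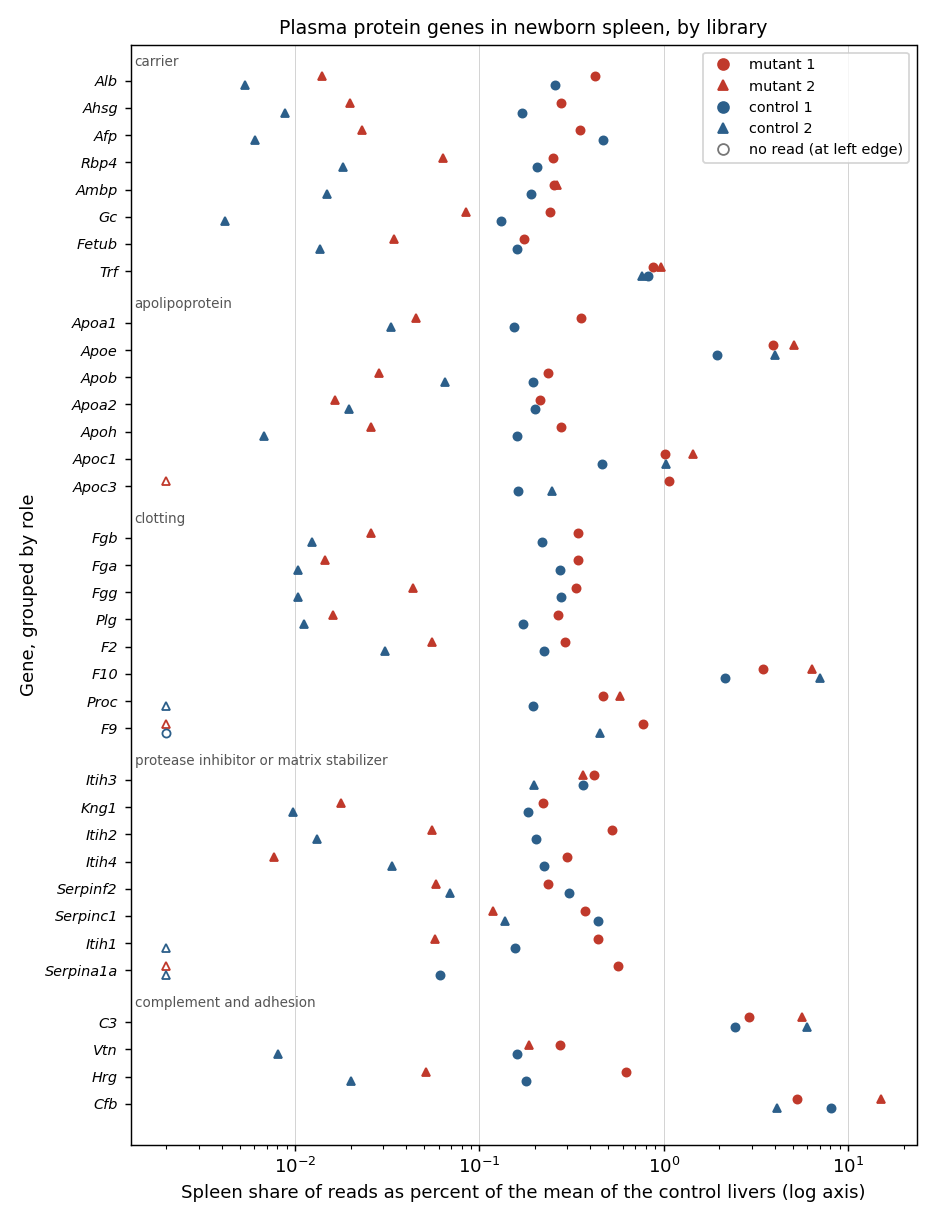
Points give the level of each plasma protein gene in each spleen library as percent of the mean of the control livers (x axis, log scale, from shares of reads; red, mutants, drawn above blue, controls; circles, number 1; triangles, number 2; open symbols at the left edge, no read). For 24 genes both circles lie to the right of both triangles, and Apoe, F10, C3 and Cfb lie above 1% in all 4 libraries. The Cfb points rest on 3 to 13 reads.

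Lower in both spleens numbered 1 were Apoe, C3, F10 and Apoc1 (20.7% of all genes were), and macrophages are a known source of at least the first 3. Apoe read 378 and 534 in mutant spleens, against 226 and 399 in control spleens, C3 read 298 and 636 in mutants and 304 and 632 in controls, and F10 read 14.9 and 30.1 in mutants and 11.2 and 31.0 in controls. Of the macrophage markers, 6 of 7 tested were also higher in the spleens numbered 2 (20.7% of all genes were). Their sums were 747 and 1550 in mutants and 860 and 1202 in controls. Neutrophil, megakaryocyte and most tested lymphocyte markers had the same order, as given below. The part of any of these cells in the levels of Apoe, C3 and F10 was not tested. Apoc1, the neighbour of Apoe, read 5.26 and 8.09 in mutants and 2.90 and 5.43 in controls. Apoe, F10, C3 and Cfb stood above 1% of the control liver level in all 4 spleens, and Apoc1 in all but control 1. The spleen values of Cfb rested on 3 and 13 reads in mutants and 6 and 3 in controls. Trf was level across the spleens, at 6.68 and 8.09 in mutants and 7.65 and 5.96 in controls, close to 1% of liver in each.

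Relative to albumin, most plasma protein RNAs of the spleens numbered 1 stood near the ratios of the liver with the same genotype and number. Of the members with at least 10 reads, 22 of 32 in mutant 1 and 18 of 29 in control 1 lay within 1.5-fold. Against the liver numbered 1 of the other genotype, 20 of 32 did in mutant 1 and 16 of 29 in control 1. Against either liver numbered 2, only 7 members of each spleen did. In mutant 1, Ahsg had 29.8 reads per 100 Alb reads in spleen (95% interval 27.8 to 31.9, counting error only). The liver value of 34.998 lay above that interval. In control 1 it had 30.4 in spleen (28.1 to 32.8) and 31.3 in liver. For Ahsg the pair numbered 2 had another ratio in both organs: 65.0 in spleen (50.9 to 82.6) and 66.3 in liver for mutant 2, and 75.4 in spleen (49.6 to 114) and 70.3 in liver for control 2. Some other members did not keep the liver ratio in the spleens numbered 2. Apoa1 stood at 59.9 in spleen (46.6 to 76.6) and 26.1 in liver for mutant 2, and at 114 in spleen (78.7 to 166) and 30.4 in liver for control 2. Ambp stood at 47.5 in spleen (36.2 to 61.9) and 3.60 in liver for mutant 2. The labels do not say whether a spleen and a liver with the same genotype and number came from the same mouse.

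Tat was read in the same way. Per 100 Alb reads, mutant 1 had 6.48 Tat reads in spleen (228 reads, 95% interval 5.64 to 7.41) and 6.65 in liver. Control 1 had 0.360 in spleen (10 reads, 0.172 to 0.663) and 0.397 in liver. The interval of each of these spleens held the liver ratio of the same genotype and number. Mutant 2 had 7.91 in spleen from 14 reads (4.24 to 13.6) and 6.70 in liver, and control 2 had 5.26 from 3 reads (1.05 to 16.2) and 1.09 in liver.

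Over the members with at least 10 reads in the spleen library, the ratios to Alb in spleen mutant 1 lay closest to those of liver mutant 1, with 22 of 32 within 1.5-fold and a median absolute log2 distance of 0.40. Liver control 1 was almost as near, with 20 of 32 within 1.5-fold and a distance of 0.43. The distance of spleen mutant 1 was 1.09 to liver mutant 2 and 1.01 to liver control 2. Spleen control 1 lay closest to liver control 1, with 18 of 29 within 1.5-fold and a distance of 0.33. Against liver mutant 1 it had 16 of 29 within 1.5-fold and a distance of 0.53. The other hepatocyte genes gave the same nearest library, at 0.20 for mutant 1 and 0.28 for control 1 over 8 genes each. In the spleens numbered 2 the distances were wider: mutant 2 lay at 1.64 from liver mutant 2 and 1.47 from liver control 2 (25 members), and control 2 at 2.91 from liver control 2 (15 members). More than 5-fold above the ratio of the liver with the same genotype and number stood 12 of 25 members in mutant 2 and 9 of 15 in control 2, against 4 of 32 in mutant 1 and 3 of 29 in control 1. Spleen mutant 2 and control 2 held 177 and 57 Alb reads, and mutant 1 and control 1 held 3518 and 2779. In the spleens numbered 2 the limit of 10 reads thus left out members low relative to Alb. Their distances and counts therefore cannot be set against those of the spleens numbered 1. Apoe, C3, F10 and Apoc3 stood more than 5-fold above their liver ratio in mutant 1. Per 100 Alb reads, Apoe had 143 in the spleen of mutant 1 and 9.72 in the liver, C3 had 113 and 11.6, and F10 had 5.66 and 0.544. For Apoc3 the spleen value of 0.284 rested on 10 reads, and the liver value was 0.0162.

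**Figure D5:**
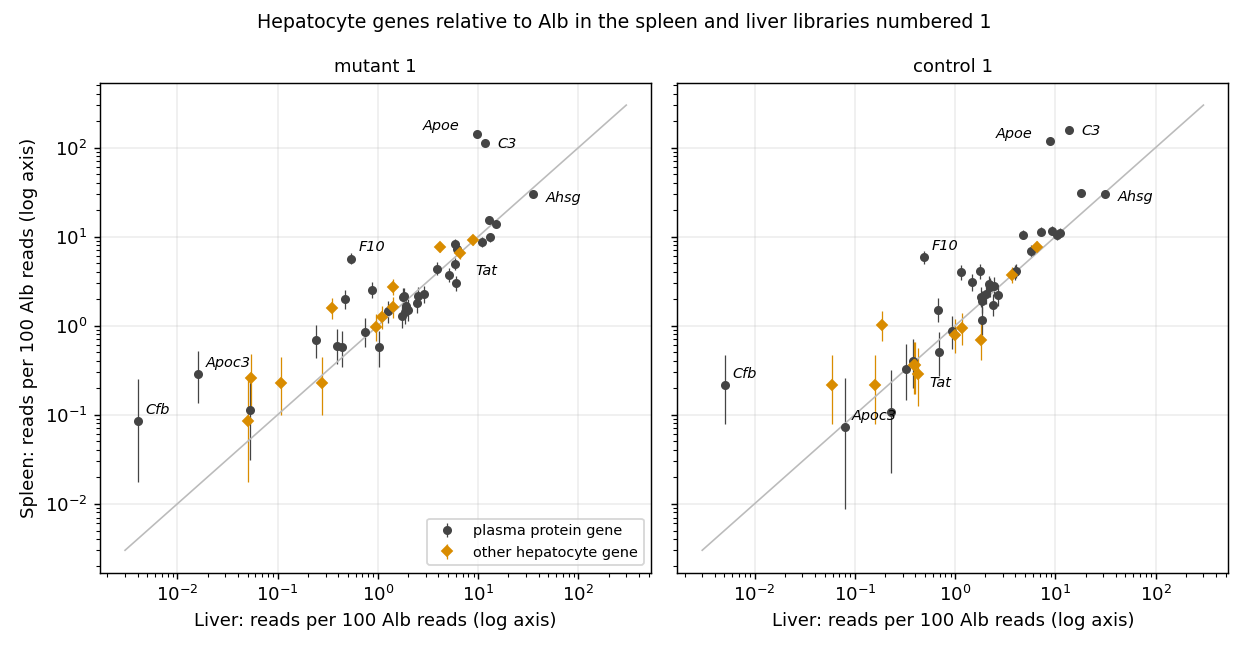
Each point is a gene, with its reads per 100 Alb reads in liver (x axis, log scale) and in spleen (y axis, log scale) for mutant 1 (left) and control 1 (right); bars are 95% intervals of counting error and the line marks equality. Most genes lie near the line, Tat at 6.48 in spleen and 6.65 in liver in mutant 1 and at 0.360 and 0.397 in control 1. Apoe, C3, F10 and Cfb lie far above it in both panels, Cfb on 3 and 6 spleen reads, and so does Apoc3 in mutant 1. Apoc1, Trf, Ass1 and Asgr2 also lie above it in both panels.

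Between genotypes, no member passed in spleen. The limma fit called 0 of 16578 genes (0.0%; 1039 genes, 6.27%, at an unadjusted p below 0.05, including 1 member, Proc), edgeR called 0 (0.0%) and DESeq2 called 182 (1.1%), none of them a member, with no adjusted p given for Proc. The 28 members tested had 22 differences above 0 (43.5% of all genes were) and 6 below (56.5%), a median of 0.50, and a median of -0.07 over all genes. That median rests on single libraries: it was 1.88 without control 1, -0.76 without control 2, -0.64 without mutant 1 and 1.38 without mutant 2. Without mutant 2, the log2 differences of Afp, Ahsg, Alb, Apoa1, Fga, Fgb and Itih2 were 2.08 to 3.27. In that fit the lone mutant is the library with the highest Alb, assumed to vary like the others. The summed share of the 35 members was 0.141% and 0.127% in mutant spleens, against 0.0940% and 0.117% in control spleens, with C3 the largest part in each. Both mutants were above both controls and control 1 was lowest (difference 0.029 percentage points, 0.018 to 0.040 with a library left out; exact permutation test, two-sided p = 0.333, the smallest the design allows). Without C3 the difference was 0.028 percentage points, with p = 0.667 by the same exact test.

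Ambp, Proc and Vtn were the 3 members higher in both mutant spleens than in both controls (18.3% of all genes were), and 0 members were lower in both (21.9% of all genes were). Vtn read 5.93 and 4.40 in mutants, against 4.21 and 0.179 in controls (log2 difference 1.65, SE 0.84, limma adjusted p = 0.779). Ambp, the precursor of alpha-1-microglobulin and bikunin, read 3.98 and 4.503 in mutants, against 3.58 and 0.239 in controls (log2 difference 1.45, SE 0.76, adjusted p = 0.779 by limma). Proc read 1.502 and 2.04 in mutants, against 0.758 and 0 in controls, where control 2 had no read (log2 difference 1.51, SE 0.56, limma adjusted p = 0.763). These differences rest on control 2: without it they were 0.25 for Vtn, 0.21 for Ambp and 0.84 for Proc, and without control 1 they were 3.05, 2.68 and 2.17 for Vtn, Ambp and Proc. In all 3 genes mutant 2 stood near mutant 1, unlike for Alb. The test of the liver response minus the spleen response called 2 of 14407 genes (0.0139%) and none of 28 members; the smallest p among members was that of Apoc1 (difference -1.26, limma adjusted p = 0.871).

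Other cell types also differed among the spleens. Summed pancreas markers read 15.9 and 7835 in mutants, against 973 and 9.48 in controls, so mutant 2 and control 1 were high. All 8 neutrophil markers, all 5 megakaryocyte markers and 4 of 6 tested lymphocyte markers were lower in both spleens numbered 1 (20.7% of all genes were). Neutrophil sums were 3560 and 7876 in mutants and 3703 and 11482 in controls. The summed splenic stroma markers, which include the spleen-defining factor Tlx1, read 241 and 230 in mutant spleens and 139 and 227 in control spleens, and 0.0804 to 0.343 in the liver libraries. No marker of that list was at 0 in all spleens. The 12 non-secreted hepatocyte markers, taken without the filter on low values, summed to 85.2 and 9.11 in mutants and 31.2 and 5.79 in controls. The part of the other cell types in the plasma protein levels was not tested.

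Brain and fibroblasts held little of these RNAs. In brain 9 members passed the filter, and Apoe was the highest at 497 and 651 in mutants and 395 and 785 in controls, with overlap. Vtn, which pericytes of the brain express, read 53.7 and 53.4 in mutants and 51.7 and 56.5 in controls (log2 difference -0.01, SE 0.11), with the smallest SE among the 9. Itih3 read 10.98 and 9.985 in mutants and 7.59 and 13.8 in controls. Itih2 read 9.37 and 10.6 in mutants and 8.68 and 10.3 in controls, and both overlapped. Alb read 5.23 and 2.85 in mutants and 5.79 and 3.52 in controls, with the brains numbered 1 higher in both genotypes. Apoa1, Ahsg, Rbp4 and C3 were between 1.03 and 3.55 in each brain library. Of 16909 genes 4 were called in brain (0.0237%), none of them a member.

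In fibroblasts Apoe, Itih2 and Rbp4 passed the filter, and 9 members had no read in any library. Apoe read 3.99, 82.4 and 15.0 in mutants 1 to 3, against 19.2, 50.1 and 18.9 in controls, a spread within each genotype wider than the difference between them (log2 difference -0.58, SE 1.04). Itih2 read 5.29, 34.8 and 17.9 in mutants and 7.64, 21.6 and 10.4 in controls, with the same mutant and control libraries numbered 2 on top. Rbp4 read 2.46, 1.80 and 2.87 in mutants and 5.71, 3.39 and 1.20 in controls. None of 13077 genes was called by limma (0.0%), and DESeq2 called 3, none of them a member. The share of the 35 genes in the summed signal was 0.0600% and 0.0745% in mutant brains and 0.0473% and 0.0895% in control brains (exact permutation test, two-sided p = 1.000), and it was at most 0.0131% in any fibroblast library.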

How the data were processed

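Members and gene lists were chosen with earlier results of these data known. Per the submitters' processing notes, the authors counted reads in genes with HTSeq 0.6.1 on GRCm38 (mm10) and normalized with edgeR; the aligner, annotation release and strand setting are not stated. The labels' protocols give Trizol extraction, RiboMinus depletion and a directional second-strand kit, and the series text 50 nt reads. The deposited values are signal, the authors' scaled counts, 1 table per tissue normalized on its own; all values were whole multiples of 1 read (tolerance 0.05), so reads were recovered. They were planned for as scaled values.

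Of 46078 identifiers 45143 matched the GENCODE annotation of GRCm38 and 935 were left out of tests. Mutants were set against controls within a tissue by limma 3.58.1 in R 4.3.3 (empirical Bayes with a mean-variance trend) on log2(signal + 0.5), over genes averaging 1 or more in the table, two-sided, Benjamini-Hochberg threshold 0.05 over all genes. Summed shares were compared by exact permutation. Alternatives were edgeR 4.0.16 and DESeq2 1.42.0 on recovered reads, other scalings, pseudocounts and filters, a replicate term, and leaving out each library. The limma, edgeR and DESeq2 fits of mutants against controls were tested on simulated counts with known changes, and the other steps were not. Intervals of read ratios are exact, at 95%. Members were all named in liver, and those with a table mean of at least 1 elsewhere; of each other list up to 4 genes with the smallest p in liver. Other genes were chosen after their values were seen. Some genes that this rule names are not reported here. The design text names heart where the labels name brain, and the control columns are headed WT; the labels were followed.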

Additional observations from a re-analysis of the deposited data

How the results depend on the processing

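No member of the liver comparison passed under any of the settings run, and none passed in brain or fibroblasts under those settings. The median log2 difference of the members in liver ranged from -0.14 (DESeq2) to -0.05 over the other settings and from -0.12 to 0.05 when a library was left out. Counts of called genes moved. In liver they were 11 without a filter on low values, 211 with DESeq2 and 60 with the replicate block, against 0. In spleen they were 22, 182 and 356 under the same settings, against 0. Brain gave 13 without a filter and 41 with DESeq2, against 4, and fibroblasts gave 3 with DESeq2, against 0. The cause was not tested.

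With the number of the library as a replicate block, 1 spleen member was called, Vtn, at the same log2 difference of 1.65 (limma adjusted p = 0.032; 0.779 without the block). The labels tie no numbers to litters or batches. Deviations of libraries with the same number correlated at 0.58 in liver, -0.03 in spleen and 0.08 in brain, and at -0.08, 0.43 and 0.02 for fibroblast numbers 1 to 3. The blocked median of the liver members was -0.05.

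When 1 library was left out, called genes ranged from 0 to 177 in spleen, from 6 to 109 in brain and from 0 to 3 for the liver response minus the spleen response. The spleen counts were 170 without mutant 1 and 177 without mutant 2, the brain count was 109 without control 2 and 27 without mutant 2, and the response count was 3 without liver control 1 and 0 without any other library. Called members in spleen ranged from 0 to 7, and only the fit without mutant 2 called any. The median of the members in brain ranged from -0.16 to 0.074. The share of the members, mutant minus control, ranged from -0.0223 to 0.0200 percentage points in brain and from -0.0023 to 0.0036 in fibroblasts. In brain its sign also turned to 4.9e-06 percentage points without Apoe, and the mean log2 level gave 0.0015, against -0.0011 for the share.

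For 23 liver members, none called, the sign of the log2 difference turned when a library was left out. Lowest and highest values were Afp -0.60 to 0.34, Ahsg -0.20 to 0.20, Alb -0.42 to 0.34, Ambp -0.081 to 0.097, Apoa1 -0.39 to 0.28 and Apob -1.09 to 0.098. The next were Apoe -0.60 to 0.25, Apoh -0.057 to 0.21, F10 -0.25 to 0.053, F2 -0.12 to 0.030, Fetub -0.18 to 0.26 and Fga -0.012 to 0.29. Further ranges were Fgg -0.10 to 0.28, Hrg -0.67 to 0.034, Itih1 -0.29 to 0.11, Itih3 -0.082 to 0.46, Itih4 -0.20 to 0.040 and Plg -0.051 to 0.35. The last were Proc -0.085 to 0.15, Rbp4 -0.68 to 0.32, Serpina1a -0.56 to 0.51, Serpinf2 -0.46 to 0.36 and Vtn -0.012 to 0.14. With other settings the sign turned for 5 members near 0. Ambp was -0.0096 with library total scaling, -0.038 with DESeq2 size factors, -0.029 with scaling to genes that are not members, -0.050 with edgeR and -0.057 with DESeq2. Fetub was -0.0073 with DESeq2 size factors, -0.020 with edgeR and -0.026 with DESeq2. Proc was -0.016 with DESeq2 size factors, -0.0070 with scaling to non-members, -0.029 with edgeR and -0.036 with DESeq2. Apoh and Vtn were -0.0034 and -3.7e-05 with DESeq2. Where a setting leaves 1 library in a group, that library is assumed to vary like the others. With 2 libraries a group, intervals of the liver differences span more than 1 log2 unit, and low spleen levels rest on few reads.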
